A study of Mus musculus with 43 samples.

Results

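Monomethylation and asymmetric dimethylation of arginine 3 of histone H4 (H4R3me1 and H4R3me2a) were compared in wild-type (WT) mouse testis cells at postnatal day 7 (P7). The comparison used 2 CUT&Tag peak lists for H4R3me1 and 3 for H4R3me2a, chosen by age, genotype and antibody from the sample labels, and these are 5 of the 43 samples of the series. The series profiles the arginine methyltransferase Prmt1 in spermatogonia, with RNA-seq of WT and Prmt1-dKO testes and CUT&Tag for 7 histone marks at P7 and P14. CUT&Tag directs a transposase to the antibody-bound mark in unfixed cells, and each peak is a stretch where the sequenced fragments exceeded the local background.

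The WT mice for CUT&Tag were C57BL/6J. Their tubules were digested and the cells passed through a strainer to remove Sertoli cells, with no sort, and the labels call them spermatogonia. The design text of the series names tamoxifen injection for WT and knockout samples alike, and does not say whether these C57BL/6J mice received it. Expression came from the P7 WT RNA libraries. The 2 Smart-seq2 libraries held GFP-positive cells sorted from testes that the methods describe as heterozygous Ddx4-GFP-CreERT2 Prmt1+/lox, in which the germ cell gene Ddx4 drives the reporter and the recombinase, so this WT group is not the genotype profiled by CUT&Tag. The 3 bulk RNA-seq libraries were from whole testis. All 7 germ cell markers reached at least 1 TPM (expression scaled to a fixed total per library) in every WT RNA library, with summed levels of 745 and 819 TPM in Smart-seq2 and 598 to 725 TPM in bulk. The 7 Sertoli markers summed to 218 and 232 TPM in Smart-seq2 and to 5915 to 6442 TPM in bulk. The 4 macrophage and 3 endothelial markers were at 0 in both Smart-seq2 libraries. No RNA was measured in the CUT&Tag cells themselves, and the promoters of all 7 Sertoli markers carried H3K4me3 peaks in both P7 WT lists, so the share of other cells in the CUT&Tag libraries was not tested with these files. The study's own check of the strained P7 cells described them as almost wholly germ cells.

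Prmt1 is the main enzyme that deposits H4R3me2a, a mark associated with active genes, and the methyl groups are added one after the other, so that H4R3me1 is also the intermediate on the way to it. The study assigned H4R3me1 to Prmt7, an enzyme that only monomethylates. Spermatogonia at this age are the dividing germ cells that renew themselves or differentiate before meiosis.

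The H4R3me1 lists held 22031 and 24193 peaks and the H4R3me2a lists 16995, 18722 and 17388. Median peak widths were 253 to 268 bp, with 23.9% to 30.3% of peaks at the minimum of 200 bp, and median fold enrichments over local background were 3.07 to 3.23. All 5 lists were called at a p of 0.005, and only 8.59% to 13.6% of their peaks had a q of at most 0.01. Read depth per library is unknown here, so the effect of depth on list length was not tested. Nothing in the labels says that replicates came from separate mice, and the spread between lists may be technical. With 2 lists against 3, the exact permutation test over lists cannot give a two-sided p below 0.2, so no difference below could pass a threshold of 0.05.

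To show what the peaks look like as sequence, 200 bp windows centred on summits are printed for regions ranked high in each class (the classes are defined with the overlaps further on), read from the plus strand of the mouse genome GRCm38 (mm10) of RefSeq, with CpG dinucleotides in capitals. The top region shared by the marks lay 2166 bp downstream of the nearest start site, that of Gm33838, at chr9:35305333-35305532, with fold enrichments of 22.7 and 23.0 for H4R3me1 and 20.9, 22.2 and 21.2 for H4R3me2a. All 200 bases were soft-masked as repeats and the region was held by all 15 P7 WT lists, whatever the antibody. The top shared promoter window without masked bases lay 67 bp upstream of a start site of Zc3h7a at chr16:11143958-11144157, held 31 CpG and reached 9.45 to 13.8-fold in the 5 lists, and its central 50 bases occurred 2 times in the genome. This region too was held by all 10 P7 WT lists of other marks. It is named after Zc3h7a by distance alone, and which of the 2 copies gave the signal was not tested.
Gm33838, shared: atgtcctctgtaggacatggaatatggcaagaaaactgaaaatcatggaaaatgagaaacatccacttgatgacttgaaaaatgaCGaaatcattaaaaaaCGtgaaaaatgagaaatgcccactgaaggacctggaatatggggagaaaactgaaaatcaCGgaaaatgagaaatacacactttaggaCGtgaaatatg
Zc3h7a promoter, shared: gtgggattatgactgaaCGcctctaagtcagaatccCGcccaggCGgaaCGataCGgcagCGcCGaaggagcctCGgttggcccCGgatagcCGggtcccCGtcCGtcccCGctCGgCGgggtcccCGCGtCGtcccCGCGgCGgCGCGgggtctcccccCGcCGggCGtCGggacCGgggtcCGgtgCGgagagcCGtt

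The best H4R3me1-only region, at chr9:32286864-32287063, was an intergenic repeat 41800 bp from a start site, with no CpG and folds of 6.08 and 5.24. The best windows of that class within 1000 bp of a start site and with at most 50% masked bases were at Lcorl, chr5:45857759-45857958, with 18 CpG and folds of 4.34 and 5.19, and at Ntan1, chr16:13818907-13819106, with 14 CpG and folds of 3.68 and 3.83. The best H4R3me2a-only region was in an intron of the noncoding gene D130009I18Rik at chr14:104715765-104715964, with 16 CpG, folds of 8.82 and 5.91 and central bases that occurred 6 times in the genome. By the same rule on distance and masking, the best H4R3me2a-only promoter window lay 181 bp upstream of Mir6236 at chr9:110281006-110281205, with no CpG, a GC content of 42.0% and folds of 5.21 and 4.17. The next was the Map7d1 window, at chr4:126256366-126256565 held 21 CpG, 123 bp upstream of a start site, with a GC content of 70.0% and folds of 3.32 and 3.70 in H4R3me2a replicates 2 and 3.
intergenic, H4R3me1 only: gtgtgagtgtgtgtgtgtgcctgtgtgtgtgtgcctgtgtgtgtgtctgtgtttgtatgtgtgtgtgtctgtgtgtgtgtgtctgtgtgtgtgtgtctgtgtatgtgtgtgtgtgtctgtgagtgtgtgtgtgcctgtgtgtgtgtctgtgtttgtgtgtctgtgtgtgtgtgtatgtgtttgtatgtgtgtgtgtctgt
Lcorl promoter, H4R3me1 only: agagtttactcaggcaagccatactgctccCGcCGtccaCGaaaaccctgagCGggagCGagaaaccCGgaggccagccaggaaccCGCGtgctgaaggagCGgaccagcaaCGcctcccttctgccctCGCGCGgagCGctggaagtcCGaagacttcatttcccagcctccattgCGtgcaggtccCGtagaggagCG
Ntan1 promoter, H4R3me1 only: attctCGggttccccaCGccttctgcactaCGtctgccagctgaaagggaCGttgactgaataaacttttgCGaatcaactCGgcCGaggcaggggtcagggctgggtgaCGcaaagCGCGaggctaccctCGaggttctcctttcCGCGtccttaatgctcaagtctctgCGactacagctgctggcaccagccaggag
D130009I18Rik intron, H4R3me2a only: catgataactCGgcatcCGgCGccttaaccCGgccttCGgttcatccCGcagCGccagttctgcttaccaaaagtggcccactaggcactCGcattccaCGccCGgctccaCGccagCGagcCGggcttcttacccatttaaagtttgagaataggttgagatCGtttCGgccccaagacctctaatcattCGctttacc
Mir6236 promoter, H4R3me2a only: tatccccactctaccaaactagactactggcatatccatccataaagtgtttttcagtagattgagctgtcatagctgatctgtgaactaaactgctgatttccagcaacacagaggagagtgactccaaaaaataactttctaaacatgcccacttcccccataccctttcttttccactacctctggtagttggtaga
Map7d1 promoter, H4R3me2a only: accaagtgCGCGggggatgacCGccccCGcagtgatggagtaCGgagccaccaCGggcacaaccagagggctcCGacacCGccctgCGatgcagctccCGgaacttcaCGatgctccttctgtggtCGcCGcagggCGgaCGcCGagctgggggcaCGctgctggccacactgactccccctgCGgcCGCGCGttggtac
Of these promoter windows those at Lcorl, Ntan1 and Map7d1 were CpG-rich and that at Mir6236 had no CpG. The best H4R3me1-only region and the D130009I18Rik region were each held by 7 of the 10 P7 WT lists of other marks. Which of the 6 copies of the central D130009I18Rik bases gave the signal was not tested. The Lcorl, Ntan1, Mir6236 and Map7d1 regions were also held by 6, 4, 3 and 9 of the 10 P7 WT lists of other marks.

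Both marks lay at promoters, introns and intergenic sequence in similar shares. A summit within 3000 bp of an annotated start site was counted as a promoter summit. These made up 33.6% and 28.8% of H4R3me1 summits and 32.0%, 31.6% and 34.0% of H4R3me2a summits. The groups overlapped, with means of 31.2% ± 3.40 (SD, n = 2) and 32.6% ± 1.28 (SD, n = 3), and the exact permutation test gave p = 0.6. Promoters as defined here take 15.5% of the genome, so that each list held 1.86 to 2.19 times the genomic share. Introns held 35.2% and 37.1% of H4R3me1 summits and 34.5%, 34.1% and 33.9% of H4R3me2a summits. Here the ranges did not overlap and H4R3me1 was higher by 1.94 percentage points, at the smallest p the design allows (exact permutation p = 0.2, adjusted p = 0.9 over 9 tests). The ranges overlapped at a q of at most 0.01, with 29.5% and 32.9% against 29.8%, 29.4% and 29.0% (exact permutation p = 0.4), and without H4R3me1 replicate 2 the difference was 0.98 percentage points. Intergenic shares were 28.4% and 31.4% against 30.6%, 31.0% and 29.1% (exact permutation p = 1), well under the genomic 48.9%. Exons held 1.59% and 1.53% against 1.62%, 2.03% and 1.56% (exact permutation p = 0.4).

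**Figure D1:**
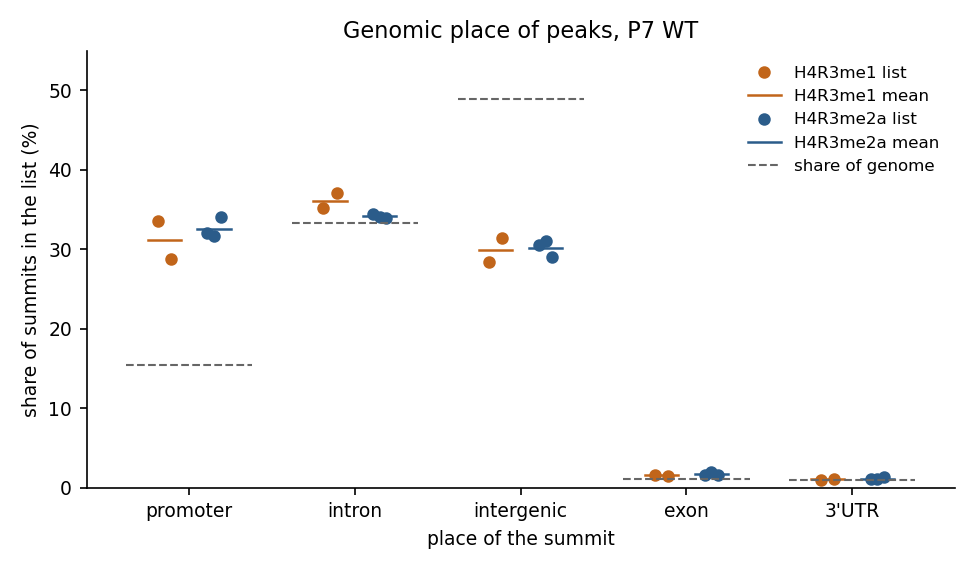
Share of summits (%) by genomic place; each point is one P7 WT list, solid bars are means of 2 H4R3me1 or 3 H4R3me2a lists and dashed bars the share of the genome. Promoter points of all 5 lists sit at 28.8% to 34.0%, above the genomic 15.5%, and intron points of H4R3me1 sit above those of H4R3me2a.

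Around start sites both marks peaked in the first 100 bp downstream. That bin held 3.52% and 2.14% of H4R3me1 summits and 3.17%, 3.13% and 3.41% of H4R3me2a summits, against a mean of 0.259% to 0.279% per bin beyond 2000 bp. In every list more summits lay within 1000 bp downstream (9.39% to 13.3%) than within 1000 bp upstream (7.12% to 8.87%). H4R3me1 replicate 2 stood apart: 16.5% of its summits lay within 1000 bp of a start site, against 21.6% in replicate 1 and 19.7% to 21.8% for H4R3me2a. It was also the longest of the lists and had the lowest share of peaks at a q of at most 0.01.

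**Figure D2:**
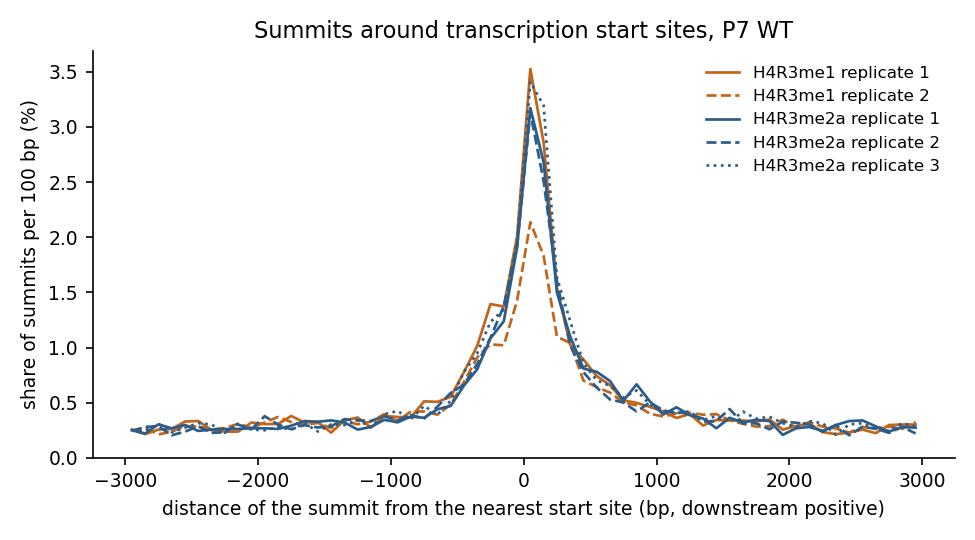
Share of summits (%) per 100 bp by distance from the nearest start site in bp, downstream positive; one line per P7 WT list. The curves of both marks lie on each other except H4R3me1 replicate 2, whose top of 2.14% is below the 3.13% to 3.52% of the other lists.

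Promoter and enhancer marks gave the same picture. H3K4me3 marks active promoters and H3K27ac active promoters and enhancers. Regions found in both P7 WT H3K4me3 lists were overlapped by 16.8% and 11.3% of H4R3me1 peaks and by 15.03%, 14.96% and 16.5% of H4R3me2a peaks (exact permutation p = 0.8). For H3K27ac these shares were 14.4% and 10.6% against 13.7%, 12.7% and 14.6% (exact permutation p = 0.6). In both cases H4R3me1 replicate 1 lay within or above the H4R3me2a range and replicate 2 below it, so that the sign of the difference turned when replicate 2 was left out (to 1.28 and 0.744 percentage points). The ratio of observed to expected CpG over 200 bp at the summit had list medians of 0.194 and 0.1797 for H4R3me1 and 0.195, 0.196 and 0.198 for H4R3me2a, with no overlap between the groups (exact permutation p = 0.2). The genome as a whole had 0.190, and without H4R3me1 replicate 2 the difference shrank from -0.00911 to -0.00177. At a q of at most 0.01 it was -0.000142 (exact permutation p = 1), with overlapping groups, and p was 0.8 with lists of equal length and 0.6 over 500 bp in the same exact permutation test.

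Lists of the same mark and lists of different marks shared similar parts of their peaks. The H4R3me1 lists had 19.4% of their peaks in common, counted over both lists at an overlap of at least 1 bp. The pairs of H4R3me2a lists had 17.1%, 19.0% and 18.3%. The 6 pairs across the marks ranged from 15.3% to 20.2%, and the highest of these, H4R3me1 replicate 1 with H4R3me2a replicate 3, exceeded every pair within a mark. Pairs within a mark averaged 18.4% and pairs across 17.7%, a difference of 0.694 percentage points (exact permutation p = 0.4, 10 assignments). By shared bases over united bases the means were 9.71% and 9.20% (exact permutation p = 0.2). At a q of at most 0.01 the difference was 2.35 percentage points (exact permutation p = 0.2), and at equal list length 0.168.

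Overlap with lists of other arginine marks differed between marks, but list lengths differed too and were not made equal for these pairs. Pairs with H3R8me2a, deposited by Prmt2, shared 17.8% to 21.03% of peaks, with a mean of 19.5%. Pairs with H3R2me2a, deposited by Prmt6, shared 15.2% to 18.1%, while pairs with H4R3me2s, the symmetric form deposited by Prmt5, shared 10.4% to 14.4%, below every pair of the 5 lists. The H4R3me2s lists held 19981 and 36145 peaks, 46.9% and 54.0% of them at 200 bp, and the H3R8me2a lists 15547 and 15361. Of H4R3me2a replicate 3 peaks 17.1% overlapped H4R3me2s replicate 2, and 8.31% the other way, since the longer list lowers the joint share. For H3K27ac the range was 15.4% to 20.6% and for H3K4me3 13.8% to 19.4%. No antibody-free control list was analysed here.

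**Figure D3:**
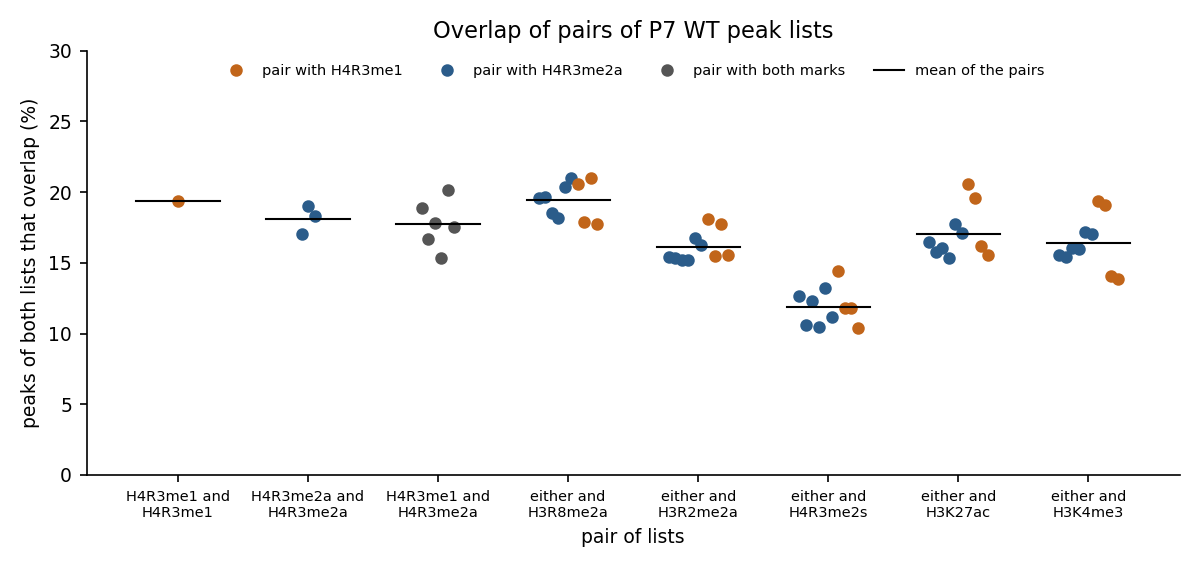
Peaks of both lists that overlap (%) for pairs of P7 WT lists; points are pairs, coloured by the H4R3 mark in the pair, and bars are means. Pairs within H4R3me1 (19.4%) and within H4R3me2a (17.1% to 19.0%) fall inside the range of pairs across the marks (15.3% to 20.2%).

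Merging the 5 lists gave 76549 regions, and 63735 of them (83.3%) were in a single list. Regions were called shared when both H4R3me1 lists and at least 2 H4R3me2a lists held them, H4R3me1 only when both H4R3me1 lists and no H4R3me2a list did, and H4R3me2a only when at least 2 H4R3me2a lists and no H4R3me1 list did. There were 2228 shared regions, 1336 of them in all 5 lists, 1238 H4R3me1-only and 2024 H4R3me2a-only regions. Only 215 of the last were in all 3 H4R3me2a lists. At a q of at most 0.01 there were 623 shared, 126 H4R3me1-only and 201 H4R3me2a-only regions. The balance of the separate classes followed the number of lists: without any one H4R3me2a list, H4R3me1-only regions numbered 1547 to 1635 and H4R3me2a-only regions 789 to 865. Regions held by exactly 2 lists were also counted for each pair, where longer lists have more chance to contribute. The H4R3me1 pair held 1238 such regions and the H4R3me2a pairs 581, 575 and 653, while the 6 pairs across the marks held 684 to 880. With lists of equal length the H4R3me1 pair held 772, the H4R3me2a pairs 595 to 659 and the pairs across 487 to 787.

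Shared regions held the strongest peaks and were most often held by lists of other marks. The class needs a peak in at least 4 of the 5 lists and the separate classes only 2 or 3, which by itself favours strong peaks, so these values are a description. Within each list peaks were ranked by p as percentiles, with 100 the strongest. Peaks in shared regions had median ranks of 85.3 to 89.6 in the 5 lists, against 52.5 to 58.5 for peaks of the separate classes. A median of 7 of the 10 P7 WT lists of other marks also held a shared region, against 1 for each separate class and 0 for regions in a single list. Lists of H3R8me2a held 78.4% and 77.4% of the shared regions, 18.2% and 17.5% of the H4R3me1-only and 19.8% and 19.7% of the H4R3me2a-only regions. For H3K27ac these shares were 70.0% and 67.7%, 23.8% and 23.2%, and 20.8% and 20.2%. Soft-masked repeat bases made up 48.4% of the windows at shared summits, 33.0% at H4R3me1-only, 29.6% at H4R3me2a-only summits and 36.4% of the genome. All 15 P7 WT lists together held 436 regions, which overlapped 443 of the shared regions, and the part of such regions in the overlap was measured by leaving them out: pairs within a mark then exceeded pairs across by 0.547 percentage points (exact permutation p = 0.6).

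By place the separate regions divided as follows. Promoters took 34.6% of H4R3me1-only and 38.5% of H4R3me2a-only regions, introns 34.0% and 28.7%, and intergenic sequence 29.2% and 30.1%. The median ratio of observed to expected CpG was 0.201 and 0.233. Since each class is a single set of regions, these differences have no replicate error and were not tested.

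The classes were followed to P14, an age whose sample titles say spermatogonia while the cell type label says spermatocytes. H4R3me1-only regions overlapped peaks in 32.1% and 32.5% for the P14 WT H4R3me1 lists and in 34.7% to 37.5% for the 3 P14 WT H4R3me2a lists. H4R3me2a-only regions did so in 28.2% and 28.6% and in 35.7% to 38.5%. Both classes had their higher shares in the H4R3me2a lists, which were longer (39597 to 44836 peaks against 29030 and 32003). For shared regions the shares were 81.1% and 81.6% and 84.3% to 87.3%, and for regions in a single P7 list 9.26% and 9.97% and 11.3% to 13.1%.

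**Figure D4:**
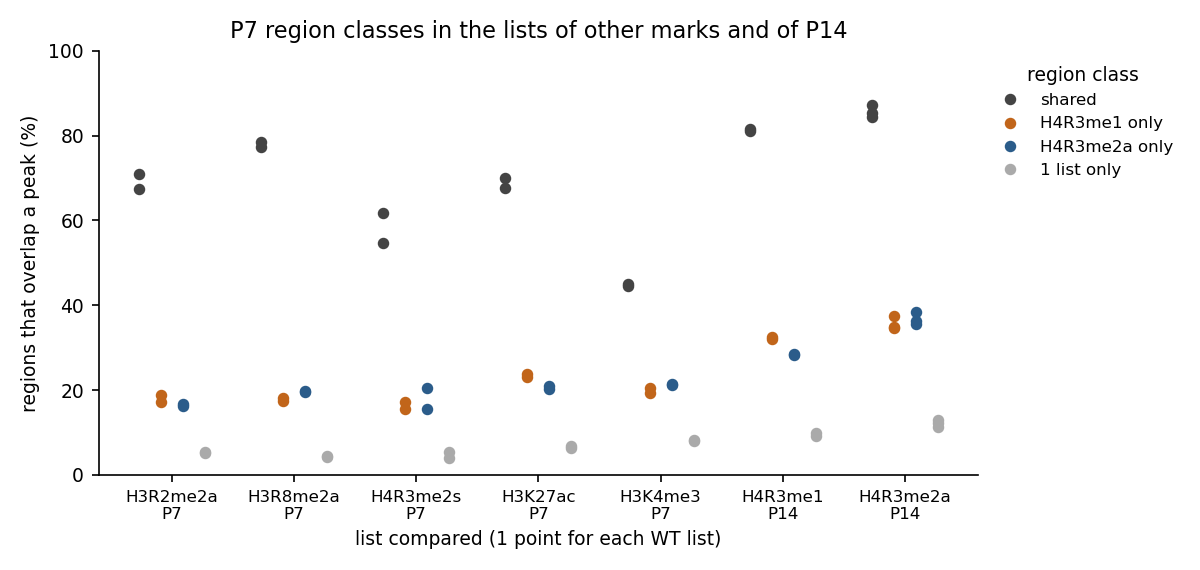
Regions of each P7 class that overlap a peak (%) in each WT list of another mark at P7 or of H4R3me1 and H4R3me2a at P14; one point per list. Shared regions reach 44.5% to 87.3%, while H4R3me1-only and H4R3me2a-only regions lie next to each other at 15.5% to 38.5%.

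Promoter genes were then compared by expression. Of 21938 protein-coding genes, 2372 had a promoter summit in both H4R3me1 lists (10.8%) and 3355 in at least 2 H4R3me2a lists (15.3%). By the same classes, 1140 genes were shared (5.2%), 488 were H4R3me1 only (2.22%), 850 were H4R3me2a only (3.87%), and 10351 had no summit of either mark. The remaining 9109 genes fell in no class, 4096 of them with summits of both marks in too few lists to be called shared. A gene with several start sites could be classed by summits at different places. The summits of the lists that class a gene lay in peaks of one merged region for 585 shared genes (51.3%), 204 H4R3me1-only genes (41.8%) and 370 H4R3me2a-only genes (43.5%), a count added after seeing the data. Without any one H4R3me2a list there were 689 to 724 shared, 699 to 772 H4R3me1-only and 356 to 387 H4R3me2a-only genes, and at a q of at most 0.01 there were 79, 49 and 53. Per list, promoter genes of all types had a median log2(TPM + 1), from the mean of the Smart-seq2 WT libraries, of 2.22 and 1.70 for H4R3me1 and 1.97, 1.83 and 1.95 for H4R3me2a. The groups overlapped (difference 0.05, exact permutation p = 0.8), and H4R3me1 held both the highest and the lowest list. The difference was 0.27 with lists of equal length, at the smallest p the design allows (exact permutation p = 0.2), and 0.42 at a q of at most 0.01 (exact permutation p = 0.6).

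Of the classes, shared genes had the highest median expression. The shared class needs summits in at least 4 of the 5 lists and the separate classes in only 2 or 3. Medians also rose with the number of lists up to 4, whatever the mark, and class and number of lists were not separated. Shared genes had 19.95 and 17.5 TPM in the Smart-seq2 WT libraries and 26.1 to 28.2 TPM in bulk. H4R3me1-only genes had 12.7 and 12.3 TPM and 20.03 to 21.6 TPM, and H4R3me2a-only genes 9.19 and 8.04 TPM and 16.7 to 17.8 TPM. Genes with no summit were at 0 in both Smart-seq2 libraries and 0.26 TPM in each bulk library. The genes in no class had 8.32 and 7.88 TPM in Smart-seq2, next to the H4R3me2a-only genes. In all 5 RNA libraries the medians fell from shared to H4R3me1 only, H4R3me2a only, no class and neither. The first 3 kept that order with lists of equal length, with a promoter of 1000 bp and among the genes with summits in one merged region, though these libraries measure one and the same set of genes per class and no test over genes was made. At least 1 TPM was reached in Smart-seq2 by 81.5% and 78.5% of shared, 72.3% and 68.0% of H4R3me1-only, 69.1% and 66.2% of H4R3me2a-only and 32.3% and 30.1% of unmarked genes. Promoters with H3K4me3 peaks made up 93.5%, 83.4%, 83.9% and 38.2% of these classes. Within H3K4me3 promoters the medians drew closer, at 22.3 and 20.6 TPM for shared, 19.5 and 16.8 for H4R3me1-only, 14.5 and 14.2 for H4R3me2a-only and 9.85 and 9.43 for unmarked genes. Genes in no class had 16.8 and 15.9 TPM there, above the H4R3me2a-only genes. In bulk they had 25.4, 25.7 and 23.96 TPM against 25.5, 26.7 and 23.8 for H4R3me2a-only genes, so the order of these 2 classes turned in both Smart-seq2 libraries and bulk replicate 3 and held in bulk replicates 1 and 2.

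**Figure D5:**
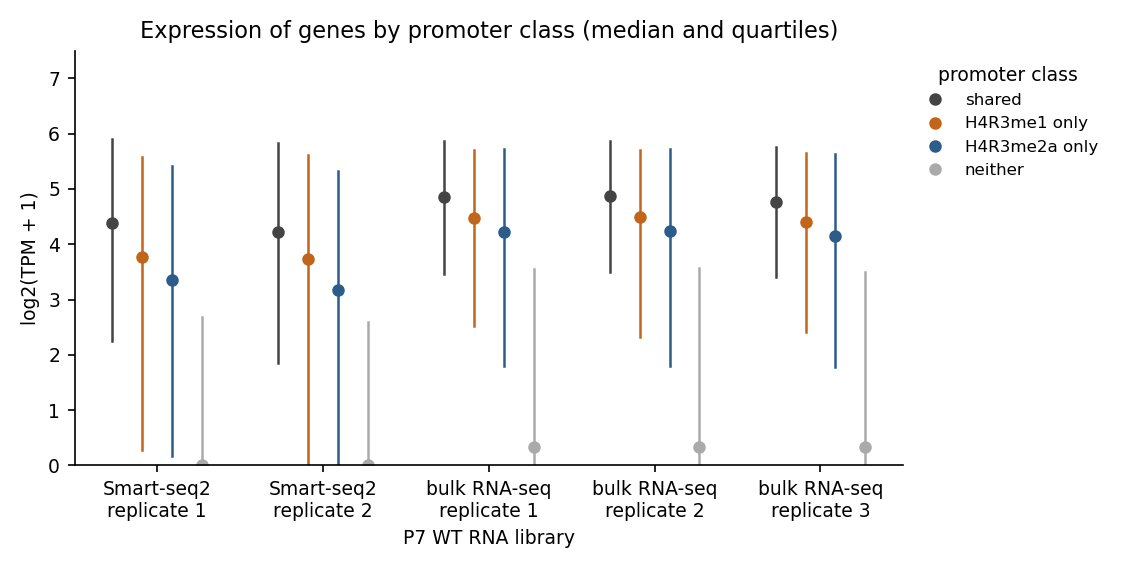
Expression on the log2(TPM + 1) scale of protein-coding genes by promoter class in the 5 P7 WT RNA libraries; points are medians and lines run from the lower to the upper quartile. The order of medians is the same in each library and the quartile ranges of the marked classes overlap widely.

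The 5 genes with the highest Smart-seq2 level in each class were as follows. In the shared class, Hmgn2, a nucleosome-binding protein, was at 2297 and 2929 TPM in Smart-seq2 with folds of 3.00 and 2.96 for H4R3me1 and 3.61, 3.31 and 2.94 for H4R3me2a. Eif5a, a translation factor, was at 1422 and 1609 TPM, and its folds varied within each mark, at 3.24 and 5.45 for H4R3me1 and 2.92, 4.5 and 3.28 for H4R3me2a. Hnrnpk, an RNA-binding protein of splicing and translation, had 3.47 and 3.66 against 3.45, 3.92 and 4.21. The other members were Rps27l and Srrm2, a spliceosome-associated protein whose promoter had no summit in H4R3me2a replicate 3. The fold enrichments of the marks overlapped at each of these 5 genes.

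H4R3me1 only were Ptma (prothymosin alpha, 1639 and 1809 TPM, folds of 3.33 and 3.05), the translation initiation factor gene Eif5 (1147 and 823 TPM, 2.82 and 3.89), the ribosomal protein gene Rpl37 (985 and 981 TPM, 3.06 and 3.68), the histone variant gene H2afz (850 and 1013 TPM, 3.68 and 3.62) and the ATP synthase gene Atp5a1 (602 and 649 TPM, 3.31 and 3.44). H4R3me2a only were the ubiquitin gene Ubb (3903 and 3290 TPM), Rps13, Rps29, Rpl27 and the chromatin protein gene Hmgb1 (1572 and 1451 TPM, folds of 3.23, 3.48 and 3.68). Promoter folds in these separate classes were 2.57 to 3.89, and the peaks ranked from percentile 6.61 of their list (Rps13, H4R3me2a replicate 3) to percentile 90.9 (Eif5, H4R3me1 replicate 2). Of the 15 genes, Srrm2, Ptma and Atp5a1 had no single merged region that held summits of the lists that class them. All 15 promoters carried H3K4me3 and H3K27ac peaks in both lists of each.

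Among the 9 arginine methyltransferase genes, 3 had H4R3me1 and 4 had H4R3me2a at the promoter, or 33.3% and 44.4% against 10.8% and 15.3% of all genes. Of the 9 promoters 8 carried H3K4me3, and no share over H3K4me3 promoters alone was computed. Carm1 and Prmt2, which deposit asymmetric dimethylarginine, were shared. Prmt8, a brain-enriched enzyme, was H4R3me1 only and was listed at 0 TPM in both Smart-seq2 libraries. Prmt1, at 350 and 239 TPM, had a summit in 1 H4R3me1 and 2 H4R3me2a lists, and Prmt7, at 76.3 and 89.9 TPM, in 1 list of each. Prmt5 had none.

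Splicing genes were marked as follows. Of 23 hnRNP and polypyrimidine tract binding genes, 5 had H4R3me1 in both lists and 10 had H4R3me2a in at least 2, or 21.7% and 43.5% against 10.8% and 15.3% of all genes. All 23 promoters carried H3K4me3, while the share over all genes includes promoters without it. Hnrnpk and Hnrnph1 were shared, Hnrnph3 and Ptbp3 were H4R3me1 only, and Hnrnpd and Hnrnpul2 were H4R3me2a only. At Hnrnpul2 the H4R3me2a folds were 3.74, 3.55 and 4.55. Of the remaining H4R3me2a genes, Hnrnpa0, Hnrnpa1, Hnrnpa2b1 and Hnrnpul1 were in all 3 H4R3me2a lists and also in 1 H4R3me1 list. Among 13 SR factors, 2 had each mark (15.4%). Tra2b was classed as shared, but its H4R3me1 and H4R3me2a summits lay at different start sites and in no common region. Of 83 ribosomal protein genes 5 had H4R3me1 and 12 had H4R3me2a, and of 39 proteasome genes 5 and 7. These were 6.02% and 14.5% of ribosomal and 12.8% and 17.9% of proteasome genes. Of 67 replication-dependent histone genes 3 and 4 had the marks (4.48% and 5.97%), and of 36 respiratory complex I genes 3 and 4 (8.33% and 11.1%).

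Germline genes were marked in shares of 5.56% to 13.6% for H4R3me1 and 11.1% to 18.8% for H4R3me2a over 4 lists, against 10.8% and 15.3% of all genes. Of 22 stem cell self-renewal genes, 3 had each mark: Taf4b was shared, Eomes was H4R3me1 only, Gfra1 had H4R3me1 in both lists and H4R3me2a in 1, and Etv5 and Lhx1 had H4R3me2a in 2 and H4R3me1 in 1. Of 16 differentiation genes, 2 and 3 had the marks, with the demethylase gene Kdm1b in all 5 lists. Its strongest summit in each list had folds of 3.26 to 4.52, and that of H4R3me1 replicate 2 lay at another start site than those of the other lists. Of 18 germ cell genes, Tdrd5 was H4R3me1 only, and Dazl (323 and 368 TPM) and Piwil2 (67.7 and 71.7 TPM) were H4R3me2a only. Of 29 meiosis genes, 3 and 5 had the marks: Brca2 and Mlh3 were H4R3me1 only, and the synaptonemal complex gene Syce2 (748 and 890 TPM) and the cohesin gene Rad21l were H4R3me2a only. The summits that class Taf4b, Tdrd5, Dazl, Brca2 and Syce2 lay in no common region, so no single peak region stands behind those calls. At Piwil2 the strongest summit lay 93 bp downstream of a start site in H4R3me2a replicate 1. In replicates 2 and 3 it lay 2426 and 2318 bp downstream, with folds of 2.76 and 2.37 at rank percentiles 26.1 and 1.05. The Mlh3 summits lay 2524 and 2681 bp downstream of a start site.

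Olfactory and vomeronasal receptor genes, best known from sensory neurons, rarely carried either mark. Of 1093 olfactory receptor genes, 4 had H4R3me1 and 5 H4R3me2a, and of 327 vomeronasal receptor genes 1 and 1, all under 0.5% where 10.8% and 15.3% of all genes were marked. Promoters with H3K4me3 numbered 2 among the olfactory and 1 among the vomeronasal receptor genes. Of 365 Zfp zinc finger genes 33 and 55 had the marks (9.04% and 15.1%), and of 39 Hox genes 4 and 4 (10.3% each), with Hoxa10 and Hoxd13 H4R3me1 only and Hoxc11 and Hoxd11 H4R3me2a only, each listed at 0 TPM in both Smart-seq2 libraries. Of 16 Sertoli markers 3 had H4R3me1 (18.8%), namely Inha, Wt1 and Clu, and 0 had H4R3me2a in at least 2 lists, though Wt1 and Clu each had it in 1. Of 9 Leydig markers 0 and 1 were marked, of 10 macrophage markers 1 (C1qa) and 0, and of 7 myoid and 7 endothelial markers none. Hoxa10, Hoxd11, Inha and C1qa were likewise classed by summits in no common region.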

How the data were processed

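CUT&Tag peaks and RNA-seq gene tables were taken as the authors deposited them. Reads were trimmed by the authors with fastp 0.23.2 and peaks called with MACS2 2.1.0 on mm10, each sample alone, at p 0.005 (q 0.05 for H3K4me3), as the peak names and the submitters' processing notes say. For CUT&Tag, the sources used here name no aligner or control. The deposited peak lists give fold enrichment (a ratio to local background) and the −log10 of p and q at the summit. For RNA the authors ran RSEM: the deposited expected counts are not normalized and summed to 15196883 to 18547103 per WT library, and the deposited TPM values, scaled within each library, were used for levels.

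Summits were placed on GENCODE vM21 (promoter, 5′UTR, 3′UTR, exon, intron, downstream, intergenic, in that order) with a promoter of 3000 bp each side of every transcript start and a downstream zone of 300 bp. Overlap needed 1 bp. Of 55401 gene identifiers, 55141 matched without their version, and 21884 of 21938 protein-coding genes had a TPM. TPM was compared as log2(TPM + 1), and a gene was expressed at 1 TPM. Differences between marks were tested with a two-sided exact permutation test over lists, and 9 tests were adjusted by Benjamini-Hochberg. Named regions were the 5 per class with the best lowest rank by p over the lists holding them, of which the text describes those printed as sequence. Printed windows were the best region per class and promoter windows chosen from the 2 best within 1000 bp of a start site with at most 50% masked bases, leaving out chromosome 18 and UTRs, a rule set after seeing the data. Named genes were members of 20 gene lists and the 5 genes per class with the highest mean Smart-seq2 TPM. A listed gene is not reported here. Members, classes and lists were chosen with earlier results of these data known. Overlap, region and test code was tested on simulated data. Alternatives were a q of 0.01, equal list length, other windows and overlaps, leaving out each list, a replicate block and, chosen after seeing the data, leaving out regions held by all 15 P7 WT lists and the alternatives for promoter gene counts, one of them requiring summits in one merged region. Python 3.11.15, numpy 2.4.6, pandas 2.3.3 and scipy 1.17.1 were used.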

Additional observations from a re-analysis of the deposited data

How the results depend on the processing

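No alternative gave an exact permutation p below 0.2 for any of the 9 tested differences, which the number of lists does not allow. Of 102 recomputed differences 92 kept their sign, though not always their size, and 10 changed it. Of 45 recomputed counts 22 stayed within 1.5 times and 23 moved further; the cause was not tested unless the alternative itself holds fewer peaks or lists. At a q of at most 0.01 the promoter difference (H4R3me1 minus H4R3me2a) was 0.662 percentage points, the intergenic difference -2.09, the overlap difference 2.35 and the expression difference 0.42 on the log2 scale, regions numbered 623 shared, 126 H4R3me1 only and 201 H4R3me2a only, and promoter genes 79, 49 and 53. At equal list length the differences on H3K4me3 and H3K27ac peaks were 0.412 and 1.06 percentage points, and the H4R3me1-only class held 772 regions and 304 genes. With a promoter of 1000 bp, 660 genes were shared. With summits required in one merged region, 585, 204 and 370 genes were shared, H4R3me1 only and H4R3me2a only.

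Leaving out each list gave ranges of -3.77 to 1.04 percentage points for promoters, 0.98 to 2.90 for introns, -1.78 to 1.17 for intergenic sequence, -4.19 to 1.28 for H3K4me3, -3.09 to 0.744 for H3K27ac and -0.837 to 1.59 for overlap within minus between marks, and -0.22 to 0.31 for expression on the log2 scale. The signs for promoters, H3K4me3, H3K27ac and overlap turned without H4R3me1 replicate 2. Those for intergenic sequence and expression turned without H4R3me1 replicate 1, and that for intergenic sequence also without H4R3me2a replicate 2 (0.0965). Those for introns, exons and CpG did not turn. Without each H4R3me2a list, shared, H4R3me1-only and H4R3me2a-only regions numbered 1565 to 1697, 1547 to 1635 and 789 to 865, and promoter genes 689 to 724, 699 to 772 and 356 to 387. Without an H4R3me1 list the classes, which need both, have no value.

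The replicate numbers are not said to pair the samples. With a replicate block over replicates 1 and 2, the promoter difference was -0.631, the intron difference 1.82 and the overlap difference 1.04 percentage points, and no sign changed; region counts have no blocked form. Depth was not given, so peaks near the calling threshold rest on an unknown number of reads.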

Other observations

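Both marks had few summits on the X chromosome for its share of the reference genome, as did other arginine marks. It holds 6.18% of the known bases of the genome, and 0.526% and 0.708% of H4R3me1 summits and 0.667%, 0.599% and 0.622% of H4R3me2a summits lay there, 107 to 170 per list. That reference share counts the X like an autosome, and no allowance was made for the single X of male cells. The P7 WT lists of H3R2me2a had 0.492% and 0.602%, those of H3R8me2a 0.717% and 0.851% and those of H4R3me2s 1.35% and 1.28%. The lists of H3K4me3 had 3.72% and 3.57% and those of H3K27ac 1.47% and 1.61%. At P14 the shares were 0.467% and 0.448% for H4R3me1 and 0.596% to 0.727% for H4R3me2a.

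Expression followed the number of the 5 lists with a promoter summit up to 4 lists. Median Smart-seq2 levels were 0 and 0 TPM for genes in no list, 5.24 and 4.33 TPM in 1 list, 9.56 and 9.24 in 2, 15.6 and 15.2 in 3, 21.4 and 18.3 in 4, and 17.4 and 17.7 in all 5.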
